A study of Mus musculus with 58 samples.

Results

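The genes described here are the mouse DNA methyltransferases Dnmt1, Dnmt3a and Dnmt3b, the methylation cofactor Uhrf1, and the 5-methylcytosine dioxygenases Tet1, Tet2 and Tet3. They were taken by gene symbol, as 7 of the 23152 rows of a single-cell count table, and all 7 had counts. The cells were 34 long-term haematopoietic stem cells (LT-HSC) and 24 common myeloid progenitors (CMP), sorted singly from bone marrow of wild-type C57BL/6 mice. The LT-HSC gate took cells that were negative for lineage markers, Flt3 and CD34 and positive for Kit and Sca-1. The CMP gate took cells that were negative for lineage markers, Sca-1 and CD16/32 and positive for Kit and CD34. No treatment, genotype change or age was given for either gate. The labels also list passages 8 to 10 for both gates, and what that means for sorted cells was not stated.

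DNA methylation in mammals is a covalent mark on cytosine, mostly at CpG sites, that is copied at each cell division. Uhrf1 binds the hemimethylated DNA left behind by replication and brings in Dnmt1, which methylates the new strand, while Dnmt3a and Dnmt3b add methyl groups to unmethylated sites. Tet enzymes oxidise 5-methylcytosine, which leads to loss of the mark through replication or base excision repair. In blood, Dnmt3a and Tet2 are best known as genes whose loss gives stem cells a competitive advantage, and their human counterparts are often mutated in clonal haematopoiesis and myeloid leukaemia.

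Totals per cell had a median of 236774 counts in LT-HSC (45022 to 860553) and 290977 in CMP (88329 to 706184), and the pooled cells summed to 9931131 counts in LT-HSC and 7062737 in CMP. No label names an animal, so each gate was 1 sample. There is no replicate check and no test of any difference below, and the intervals are 95% intervals, for counting error only in CPM and ratios and for the number of cells drawn in shares of cells, which says nothing of the spread between animals. The 9 markers listed for LT-HSC were all higher by 2-fold or more in that gate, and the 8 listed for CMP were all lower by 2-fold or more. Among 9 neutrophil markers, summed counts per 10000 had a median of 3.38 in LT-HSC (2.19 to 6.06) and 5.30 in CMP (0.03 to 59.4), while the macrophage markers and the defining B, T and NK cell markers were at or near 0 in both gates, apart from Cd79b and Nkg7. What part the neutrophil markers have in the differences below was not tested. No LT-HSC had a count of Xist, the RNA of the inactive X chromosome, nor had CMP 1 and 2, while the other 22 CMP did, so gate and sex of the donor cannot be told apart in the remaining cells. Levels come from captured 3′ ends, and how well each gene was captured is not known, so the 7 genes are compared between cells and not with each other.

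As a group, the methylation genes were lower in LT-HSC than in CMP or differed little between the gates. Pooled CPM, which are counts scaled to a common total, of Dnmt1, Uhrf1, Dnmt3a and Tet2 were at least 2-fold lower in LT-HSC, those of Dnmt3b, Tet1 and Tet3 lay within 2-fold, and none of the 7 was at least 2-fold higher. Apart from Dnmt1 and Uhrf1 in CMP, the lowest cell of either gate was at 0 for each gene. Of all 10937 genes with at least 20 counts, 28.1% were at least 2-fold lower and 22.7% at least 2-fold higher in LT-HSC. The median log2 ratio, LT-HSC over CMP, was −1.03 for the 7 genes and −0.13 for all genes tested. In many cells of both gates a gene had no count or only 1 or 2, while a few cells held most of its counts, and a single cell could move the pooled ratio. Of the 10937 genes, 4896 had a count in at least 1 of every 3 LT-HSC, and 8358 in at least 1 of every 3 CMP. Genes in general were thus found in a smaller share of LT-HSC. Whether the shares of cells given below for the 7 genes go beyond that was not tested.

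**Figure D1:**
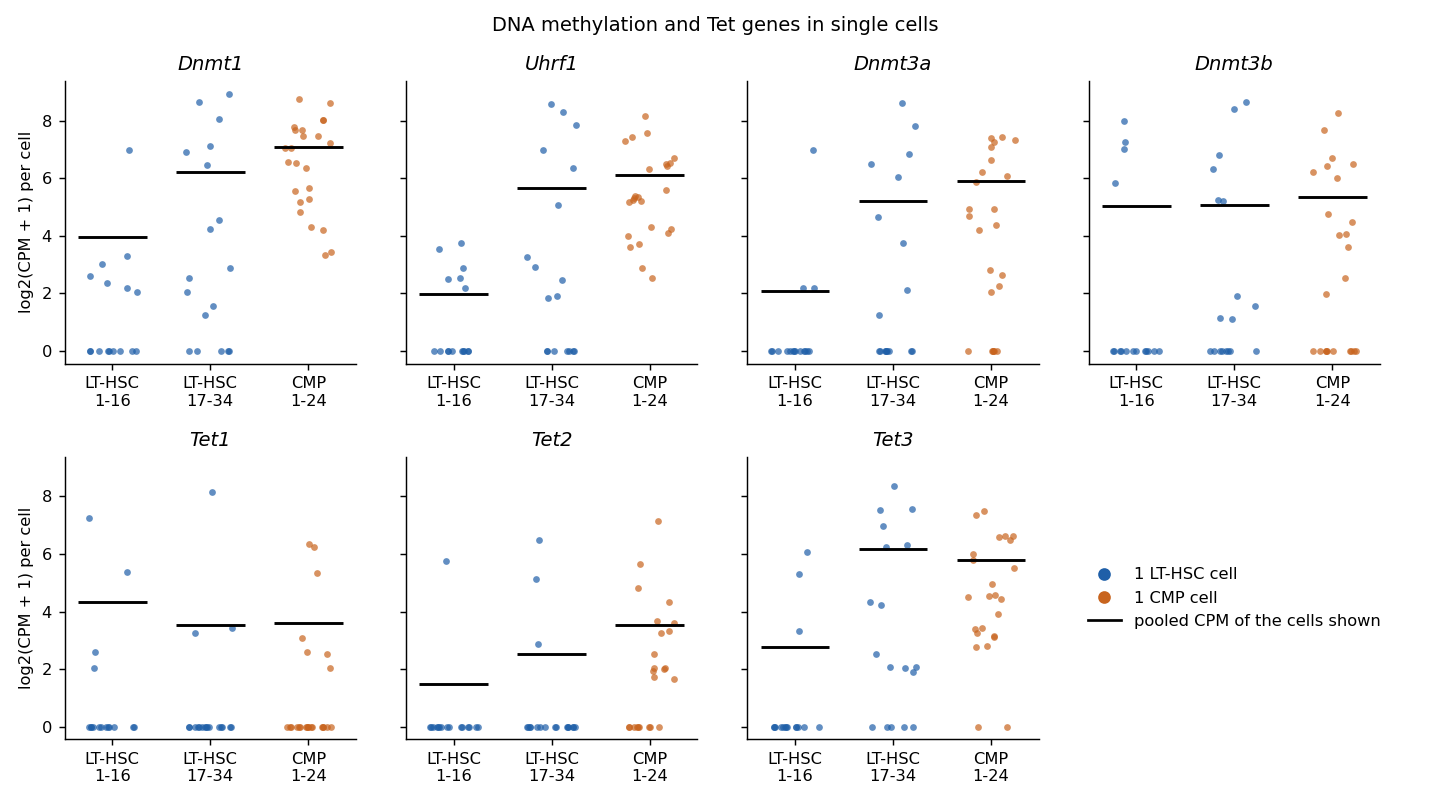
Each point is 1 cell, with its log2(CPM + 1) on the vertical axis, for LT-HSC 1 to 16, LT-HSC 17 to 34 and CMP. The black line is the pooled CPM of those cells. Most LT-HSC 1 to 16 sit at 0 in every panel, whereas all 24 CMP lie above 0 for Dnmt1 and Uhrf1.

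Dnmt1, the maintenance methyltransferase (chr9:20907209-20959888, minus strand, mm10), ranged from 0 to 489 CPM over the LT-HSC, with a median of 3.09, against a range from 9.10 to 427 CPM and a median of 112 in CMP. The ranges overlapped at the top, since the highest LT-HSC exceeded every CMP, but the low end differed. A Dnmt1 count was found in 20 of 34 LT-HSC and in 24 of 24 CMP, and at least 10 counts in 8 of 34 LT-HSC and 17 of 24 CMP. With each cell thinned at random to 97978 counts, 11 of 30 LT-HSC and 20 of 22 CMP had a count (36.7%, exact interval 19.9 to 56.1, and 90.9%, 70.8 to 98.9). The LT-HSC were thus mostly near 0 with a few cells at CMP-like levels, and 97.5% of the LT-HSC counts lay in those 8 cells. Pooled Dnmt1 was 52.7 CPM in LT-HSC (48.2 to 57.4) and 136 CPM in CMP (128 to 145), a log2 ratio of −1.37 (−1.53 to −1.22). Leaving out any single cell kept the gene at least 2-fold lower, with log2 ratios from −1.72 without LT-HSC 22 to −1.14 without CMP 4.

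Uhrf1, the reader of hemimethylated CpG sites that recruits Dnmt1 (chr17:56303321-56323486, plus strand, mm10), had a median of 1.27 CPM and a highest value of 382 CPM over LT-HSC, against 39.3 and 287 CPM in CMP. The lowest value was 0 CPM in LT-HSC and 4.75 CPM in CMP. Its distribution resembled that of Dnmt1. A count was present in 17 of 34 LT-HSC and in all 24 CMP, at least 10 counts in 6 of 34 LT-HSC and 13 of 24 CMP, and 13 of 30 thinned LT-HSC still had one, as did 21 of 22 thinned CMP. Pooled Uhrf1 was 33.3 CPM in LT-HSC (29.8 to 37.1) and 68.2 CPM in CMP (62.3 to 74.6), a log2 ratio of −1.03 (−1.24 to −0.83). This value stands at the 2-fold limit. Leaving out any 1 of 17 cells moved it inside the limit, up to −0.79 without CMP 7, and leaving out LT-HSC 27 moved it to −1.61.

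The promoters of these maintenance genes are shown because E2F-type motifs, which are known from many genes of DNA replication, were found among the 7 genes only there. RefSeq promoter windows (GRCm38.p6, 250 bases before to 50 after a start) were searched on both strands for TTTCCCGC, TTTGGCGC, TTTCGCGC and TTTGCCGC, which overlap in their letters. Matches were found in 1 of 3 windows of Dnmt1 and in 1 of 2 windows of Uhrf1, each at a start internal to the gene coordinates given above. No match was found in the 3 windows of Dnmt3a or in the 1 window each of Dnmt3b, Tet1, Tet2 and Tet3. A gene with more windows has more chances of a match. The Dnmt1 matches lie at chr9:20952824-20952853 and chr9:20952574-20952603 on the minus strand, and the Uhrf1 match at chr17:56304117-56304146 on the plus strand. Capitals mark the match, and the first Dnmt1 stretch carries it on the opposite strand.
Dnmt1 upstream: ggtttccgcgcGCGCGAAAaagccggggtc
Dnmt1 downstream: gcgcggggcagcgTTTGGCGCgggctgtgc
Uhrf1 upstream: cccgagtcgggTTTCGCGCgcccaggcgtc
The first base of the match was at −219 and 34 from this internal Dnmt1 start and at −185 from the internal Uhrf1 start. Of 32851 promoter windows 2.26% held such a match, as did at least 1 window of 4.81% of the 8401 genes with at least 20 counts and of 36.7% of 30 genes on the S phase list. A match is a run of letters, and binding was not measured.

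Dnmt3a, the de novo methyltransferase that acts in haematopoietic stem cells (chr12:3806007-3914443, plus strand, mm10), had a median of 0 CPM in LT-HSC with a highest value of 392 CPM, against a median of 22.2 and a highest value of 171 CPM in CMP. The 2 highest cells were both LT-HSC, numbers 26 and 28, although fewer LT-HSC had a count at all. Counts were found in 12 of 34 LT-HSC and 18 of 24 CMP, at least 10 counts in 5 of 34 and 9 of 24, and 7 of 30 thinned LT-HSC still had one, as did 15 of 22 thinned CMP. Pooled Dnmt3a was 25.0 CPM in LT-HSC (21.96 to 28.3) and 59.6 CPM in CMP (54.0 to 65.6), a log2 ratio of −1.25 (−1.49 to −1.03). A single cell of either gate moved this value. It was −1.87 without LT-HSC 26, the source of 36.3% of the LT-HSC counts, and −0.93 without CMP 1, the source of 28.3% of the CMP counts. The mean of each cell's CPM was 31.2 in LT-HSC and 51.0 in CMP, which gave a log2 ratio of −0.71.

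Dnmt3b, the second de novo enzyme (chr2:153649450-153687730, plus strand, mm10), gave another picture than Dnmt3a. Its median was 0 CPM in LT-HSC with a highest value of 400 CPM, against a median of 8.04 and a highest value of 305 CPM in CMP. Counts appeared in 14 of 34 LT-HSC and 14 of 24 CMP, and at least 10 counts in 8 cells of each gate. Pooled Dnmt3b was 32.6 CPM in LT-HSC (29.2 to 36.4) and 39.4 CPM in CMP (34.9 to 44.3), so the gates overlapped in range and interval, and no direction can be given. The log2 ratio was −0.27 (−0.51 to −0.03), 0.15 with the mean of each cell's CPM, 0.22 with thinned cells, −0.70 without LT-HSC 23 and 0.29 without CMP 5.

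High counts of 2 members in the same cell were tallied as a description. Among LT-HSC, 12 cells had at least 10 counts of Dnmt3a or Dnmt3b and 1 of them, LT-HSC 32, had that of both, while among CMP this held for 2 of 15 cells, CMP 1 and 17. Dnmt1 and Uhrf1, which reached 10 counts in more cells, coincided in 4 of 10 LT-HSC and 11 of 19 CMP with at least 10 counts of either. All 8 CMP with at least 10 Dnmt3b counts also had at least 10 of Dnmt1, whereas 1 of 8 such LT-HSC did. Cells with deeper counts pass the limit more easily, and a gene found in more cells meets another more often, and whether genes coincide beyond that was not tested. Spearman's rho over CPM, given as a description, was 0.16 in 34 LT-HSC and 0.42 in 24 CMP for Dnmt1 with Uhrf1, and 0.16 and −0.09 for Dnmt3a with Dnmt3b.

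Tet2, the dioxygenase most often linked to blood disease (chr3:133463679-133545139, minus strand, mm10), was the most thinly counted of the 7 genes, with 37 counts in LT-HSC and 74 in CMP. Its median was 0 CPM in LT-HSC, with a highest value of 89.1 CPM in LT-HSC 19, against a median of 2.90 and a highest value of 141 CPM in CMP. A count was found in 4 of 34 LT-HSC and 15 of 24 CMP, and after thinning in 3 of 30 LT-HSC (10.0%, 2.11 to 26.5) and 12 of 22 CMP (54.5%, 32.2 to 75.6). At least 10 counts were reached in 1 LT-HSC and 3 CMP. Pooled Tet2 was 3.73 CPM in LT-HSC (2.62 to 5.14) and 10.5 CPM in CMP (8.23 to 13.2), a log2 ratio of −1.48 (−2.10 to −0.90). It was −2.96 without LT-HSC 17, the source of 67.6% of the LT-HSC counts, and −0.96 without CMP 8. In the cells without an Xist count the log2 ratio turned to 0.96 (−0.69 to 4.36), where the CMP part rested on 2 counts in CMP 1.

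Tet3 (chr6:83362373-83459084, minus strand, mm10) had a median of 0 CPM in LT-HSC and a highest value of 329 CPM, against a median of 22.1 and a highest value of 181 CPM in CMP. A Tet3 count was present in 16 of 34 LT-HSC and 22 of 24 CMP, yet at least 10 counts were about as frequent, in 8 of 34 and 7 of 24. Of the cells with a count, 7 LT-HSC and 6 CMP had only 1 or 2, and LT-HSC 33 alone held 31.5% of the LT-HSC counts. Pooled Tet3 was 48.3 CPM in LT-HSC (44.1 to 52.9) and 54.5 CPM in CMP (49.2 to 60.2), a log2 ratio of −0.17 (−0.37 to 0.02) that ran from −0.59 without LT-HSC 33 to 0.04 without CMP 20.

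Tet1 (chr10:62804570-62908996, minus strand, mm10), known chiefly from embryonic stem cells, had a median of 0 CPM in both gates and a highest value of 283 CPM in LT-HSC and 80.2 CPM in CMP. Counts lay in 7 cells of each gate, and at least 10 counts in 3 cells of each. Pooled Tet1 was 13.5 CPM in LT-HSC (11.3 to 15.98) and 11.2 CPM in CMP (8.86 to 13.9), a log2 ratio of 0.27 (−0.14 to 0.69). No direction holds, because LT-HSC 26 alone held 48.5% of the LT-HSC counts: the log2 ratio was −0.65 without it, −0.37 without LT-HSC 16 and 0.80 without CMP 24. LT-HSC 26 was also the highest cell for Dnmt3a, and had 17 counts of Tet3 but none of Dnmt1, Uhrf1, Dnmt3b or Tet2.

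**Figure D2:**
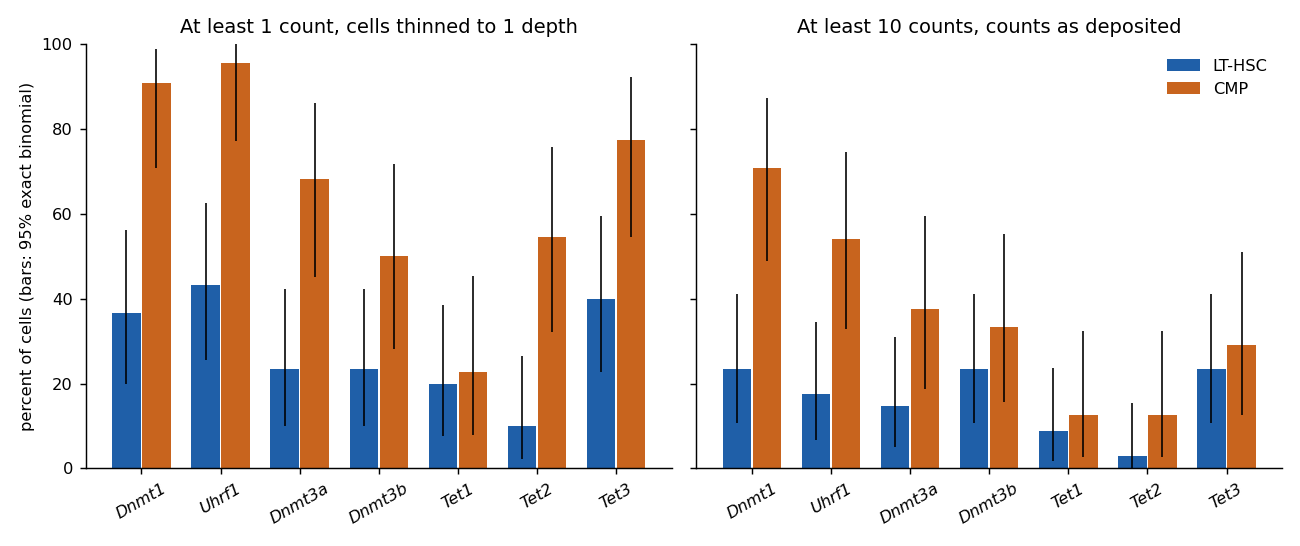
Bars give the percent of LT-HSC and of CMP with a count of each gene, at least 1 count after thinning on the left and at least 10 counts as deposited on the right, with exact binomial intervals. After thinning, Dnmt1 was found in 36.7% of LT-HSC and 90.9% of CMP, and Tet2 in 10.0% of LT-HSC and 54.5% of CMP. The intervals treat the cells of 1 sample as separate draws and are no test of the gates. Over all genes with at least 20 counts, before thinning, 4896 had a count in at least 1 of every 3 LT-HSC and 8358 in at least 1 of every 3 CMP.

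The 7 genes together were also spread unevenly over cells. The number of them with at least 10 counts had a median of 1 per LT-HSC (0 to 4) and 2.5 per CMP (1 to 6). It was 0 in 12 of 34 LT-HSC and in none of the 24 CMP. Whether this differs from other sets of 7 genes was not tested. The highest numbers were in LT-HSC 18, with 4 genes, and in CMP 1, with 6. Those cells were also the deepest of their gates, at 860553 counts and 706184 counts.

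Within the LT-HSC gate, cells numbered 1 to 16 and 17 to 34 also differed. No label gives this division, which was known from earlier results of these data. LT-HSC 1 to 16 had a median total of 211044 counts, and LT-HSC 17 to 34 one of 306454. Against LT-HSC 17 to 34, Dnmt1, Uhrf1, Dnmt3a, Tet2 and Tet3 were at least 2-fold lower in LT-HSC 1 to 16, none of the 7 was at least 2-fold higher, and over 9669 genes the shares were 29.5% lower and 26.8% higher. At least 10 counts of any of the 7 genes were missing in 10 of 16 LT-HSC 1 to 16 and in 2 of 18 LT-HSC 17 to 34.

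Uhrf1 was at 2.93 CPM in LT-HSC 1 to 16 (1.41 to 5.39) and 49.2 CPM in LT-HSC 17 to 34 (44.0 to 54.9), a log2 ratio of −4.00 with no cell of LT-HSC 1 to 16 above 12.3 CPM. Tet3, which was nearly equal between the gates, was at 5.87 CPM in LT-HSC 1 to 16 and 70.5 CPM in LT-HSC 17 to 34, a log2 ratio of −3.55, or −4.92 without LT-HSC 8. Dnmt3a was at 3.23 and 36.3 CPM in these cells, with a log2 ratio of −3.43, −5.60 without LT-HSC 5 and −2.80 without LT-HSC 26. The pooled levels of these 3 genes were thus near 0 in LT-HSC 1 to 16. Dnmt1 was at 14.4 CPM in LT-HSC 1 to 16, of which LT-HSC 16 held 85.7% of the counts, and 72.7 CPM in LT-HSC 17 to 34, a log2 ratio of −2.33, or −4.90 without that cell.

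Dnmt3b and Tet1 lay within 2-fold between these sets. Pooled Dnmt3b was at 32.0 CPM in LT-HSC 1 to 16 and 32.97 CPM in LT-HSC 17 to 34, a log2 ratio of −0.04 (−0.39 to 0.29). It was −0.84 without LT-HSC 8, which held 45.9% of the counts of LT-HSC 1 to 16, and 0.68 without LT-HSC 23. At least 10 Dnmt3b counts were found in 4 cells of each set, but any count in 4 of 16 and in 10 of 18. Tet1 and Tet2 rested on single cells here: the log2 ratio of Tet1 was 0.85, −1.18 without LT-HSC 16 and 4.75 without LT-HSC 26, and that of Tet2 was −1.34, −4.99 without LT-HSC 2 and 0.76 without LT-HSC 17.

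Each set of LT-HSC was also set against the CMP. In LT-HSC 1 to 16, 5 of the 7 genes were at least 2-fold lower than in CMP and none higher, where 37.1% of 10450 genes were lower and 21.9% higher. In LT-HSC 17 to 34, 1 of 7 was lower, Tet2 with a log2 ratio of −1.13, and none higher, where 34% of 10384 genes were lower and 20% higher. That single call ended without any 1 of 6 cells, reaching −0.60 without CMP 8, and the value was −3.23 without LT-HSC 17. In LT-HSC 17 to 34 over CMP, Dnmt1 stood at −0.91, Dnmt3a at −0.71, Uhrf1 at −0.47, Dnmt3b at −0.25, Tet1 at −0.08 and Tet3 at 0.37. Without LT-HSC 26 these were −1.35 for Dnmt3a and −3.98 for Tet1, and without LT-HSC 23 Dnmt3b stood at −0.97. Both comparisons share the CMP. Restricted to the 36 cells without an Xist count, which leaves CMP 1 and 2, Dnmt1 at −1.34 and Dnmt3a at −1.93 were at least 2-fold lower and none of the 7 was higher, against 18.9% lower and 48.8% higher of 9993 genes. Without CMP 1 these were 0.89 for Dnmt1 and 2.06 for Dnmt3a, so both rested on that cell. Without CMP 1 and 2 the same 4 genes as in all cells were at least 2-fold lower and none higher, against 28.7% lower and 22.8% higher of 10823 genes.

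**Figure D3:**
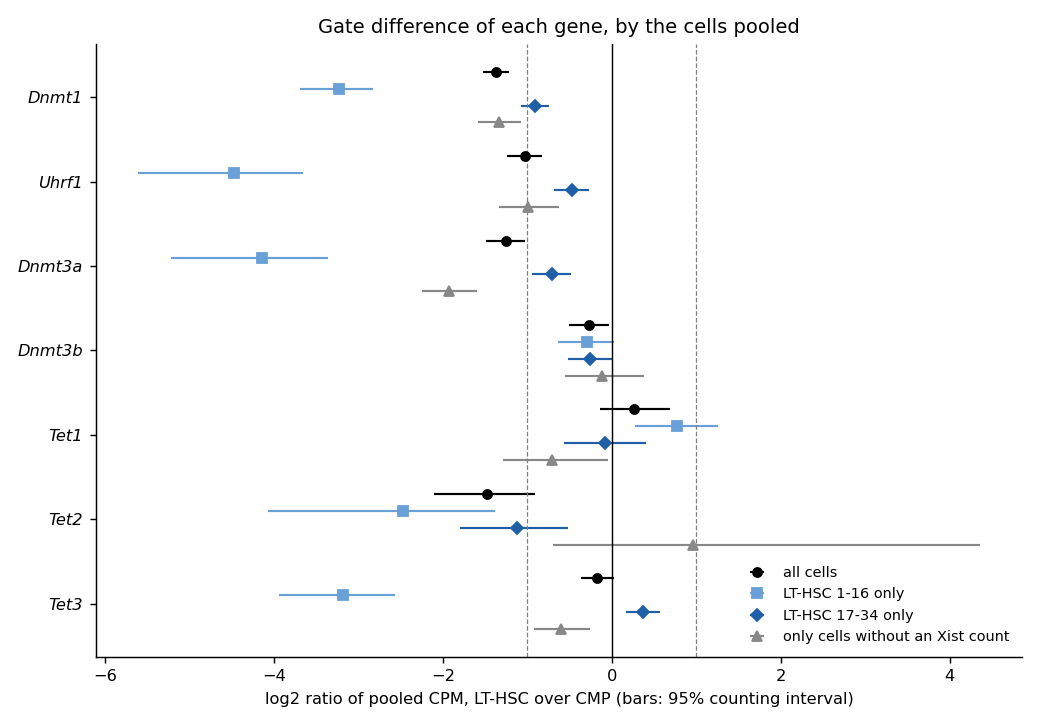
Points are log2 ratios of pooled CPM, LT-HSC over CMP, with 95% counting intervals, for all cells, for LT-HSC 1 to 16 only, for LT-HSC 17 to 34 only and for cells without an Xist count. Dashed lines mark 2-fold. Dnmt1, Uhrf1, Dnmt3a and Tet3 lie far lower with LT-HSC 1 to 16, while Dnmt3b is between −0.30 and −0.11 in all 4 sets. Single cells move Dnmt3b in each set, to −1.09 without LT-HSC 8 in the first LT-HSC set, to −0.97 without LT-HSC 23 in the second and to 5.25 without CMP 1 or −0.98 without CMP 2 among cells without an Xist count.

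The S phase gene list used here leaves out Uhrf1 but holds Pcna, Hells, Cdca7 and Tyms, which are also on the partner lists below. Cycling was described by the summed counts of this S phase list, per 10000 counts. The median was 15.2 in LT-HSC (2.42 to 89.5) and 42.9 in CMP (18.7 to 83.1), and within the stem cell gate LT-HSC 1 to 16 had 7.88 and LT-HSC 17 to 34 had 27.3. Counts of a G2 and M phase list, per 10000, had a median of 17.0 in LT-HSC and 70.0 in CMP. Medians were close within the stem cell gate, at 16.7 for LT-HSC 1 to 16 and 17.9 for LT-HSC 17 to 34. The highest cell, however, was at 24.6 in the first set and 191 in the second. As the median log2 ratio of its genes over CMP, the G2 and M list stood at −3.44 with the first set and −0.97 with the second. The S phase list stood at −2.31 and −0.10. By this measure both lists stood lower over CMP with LT-HSC 1 to 16 than with LT-HSC 17 to 34, unlike the G2 and M medians per cell. The cell at 191, LT-HSC 17, had 1.37 CPM of Dnmt1 and 2.74 CPM of Uhrf1. The part of either list in the differences of Dnmt1 and Uhrf1 was not tested. Across the cells of a gate, Spearman's rho with the S phase share was 0.38 in LT-HSC and 0.63 in CMP for Uhrf1, and 0.36 and 0.33 for Dnmt1. With thinned cells these were 0.39 and 0.54 for Uhrf1, and 0.56 and 0.57 for Dnmt1. Over all genes with enough cells the values ran, from the 5th to the 95th percentile, from −0.29 to 0.40 in LT-HSC (4896 genes) and from −0.32 to 0.39 in CMP (8358 genes). Only Uhrf1 in CMP exceeded that range before thinning. The values were 0.20 in LT-HSC and −0.15 in CMP for Dnmt3a, 0.02 and 0.07 for Dnmt3b, −0.13 and 0.11 for Tet1 and 0.03 and 0.04 for Tet2. Tet3 had 0.36 in LT-HSC and −0.10 in CMP. The cells of a gate differ in depth and come from 1 sample, and correlations of sparse counts of this size are given as a description only.

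**Figure D4:**
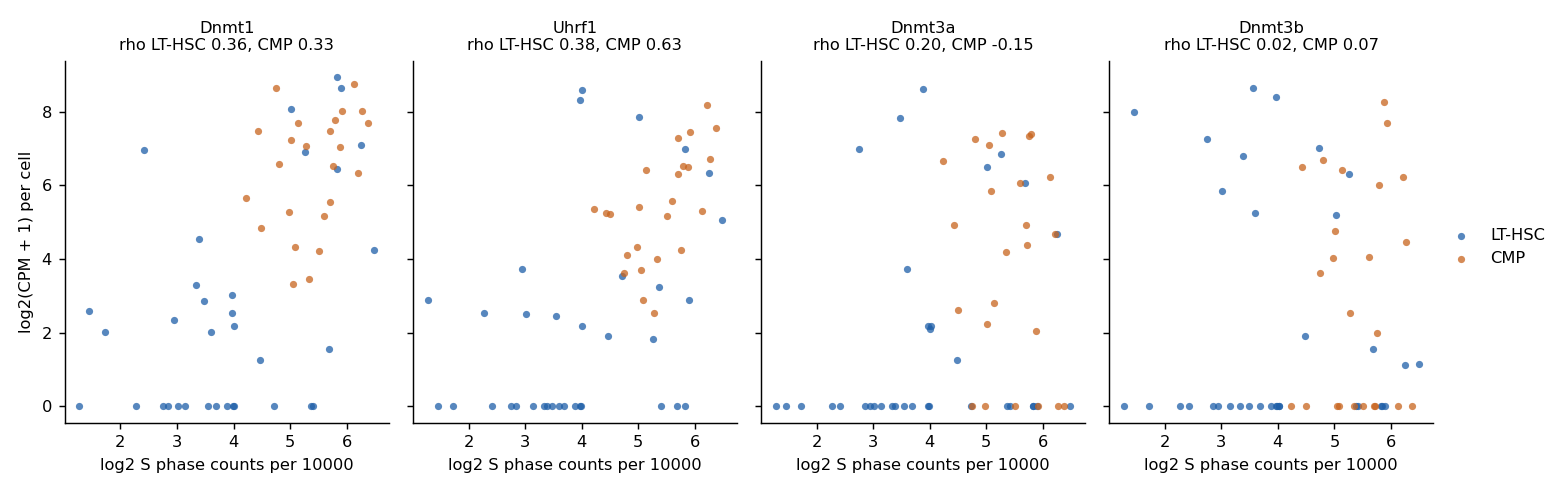
Each point is 1 cell, 34 LT-HSC and 24 CMP, with the log2 S phase counts per 10000 on the horizontal and log2(CPM + 1) on the vertical axis. The points scatter widely in both gates, and high Dnmt1 or Uhrf1 values also occur at middle or low S phase shares. The rank correlation is between 0.33 and 0.63 for Dnmt1 and Uhrf1 and between −0.15 and 0.20 for Dnmt3a and Dnmt3b.

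Genes most like each member in pattern were taken as the highest mean of the within-gate rho over 34 LT-HSC and 24 CMP, among 4791 genes. For Dnmt1 they were Zmynd11 at 0.57, Pcna at 0.54 and Rwdd1 at 0.48, and Pcna, the sliding clamp of replication forks, ranked first with thinned cells at 0.60. For Uhrf1 they were Dut, which removes dUTP during DNA synthesis, at 0.54, and Bysl and Vasp at 0.49 each. For Dnmt3a the deubiquitinase gene Cyld led at 0.55, before Tmem192 and Itm2a, for Dnmt3b the kinase gene Taok3 at 0.62, before Ppa1 and Senp2, and for Tet3 Polr3a, Sh3bp1 and Glyr1 at 0.46 to 0.48. Cyld and Taok3 also ranked first with thinned cells and Dut ranked 2, whereas Zmynd11 then ranked 22, Rwdd1 96, Tmem192 58, Bysl and Glyr1 46 each and Polr3a 10. Tet1 and Tet2 were in too few cells.

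Partners of the 7 genes were grouped by role. Of 9 maintenance partners, 2 were higher in LT-HSC by at least 2-fold and 2 lower, against 22.7% higher and 28.1% lower of all genes, and the median log2 ratio was −0.46. It was −2.05 if LT-HSC 1 to 16 alone were used and −0.02 if LT-HSC 17 to 34 were. Usp7, a deubiquitinase that binds Dnmt1 and Uhrf1, was at 7.55 CPM in LT-HSC and 108 CPM in CMP, a log2 ratio of −3.83, and 14 of 34 LT-HSC had a count, as did all 24 CMP. Uhrf2, the paralogue of Uhrf1, stood at −1.29, or −0.99 without CMP 4. Hells, the chromatin remodeller needed for methylation of repeats, was higher in pooled LT-HSC at 121 CPM against 47.6 CPM in CMP, a log2 ratio of 1.35, or 0.98 without LT-HSC 33. A Hells count was found in a smaller share of LT-HSC, 15 of 34, than of CMP, 20 of 24. The Dnmt1-associated gene Dmap1 stood at 1.37, or 0.90 without LT-HSC 1, 1.97 without CMP 2 and 0.25 in cells without an Xist count. Pooled Pcna and the ligase gene Lig1 were close, at −0.46 and −0.04, but 1 cell held 42.1% of the LT-HSC counts of Lig1. The mean of each cell's CPM was 97.0 in LT-HSC and 228 in CMP for Lig1, and 246 and 440 for Pcna.

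Of 11 tested genes that guide or protect de novo methylation, 6 were at least 2-fold lower and 1 higher in LT-HSC, with a median of −1.01, where 28.1% of all genes were lower. The higher gene was Zfp57, whose 22 LT-HSC counts all lay in 1 cell. Ehmt1, among the 6, stood at the 2-fold limit with −1.01, and 1 cell held 54.6% of its LT-HSC counts. Dnmt3l, the cofactor of Dnmt3a and Dnmt3b in germ cells, was listed at 0 in every cell. The histone H3K36 methyltransferase genes Whsc1 (Nsd2) and Setd2 were lower in LT-HSC. Whsc1 was at 24.9 CPM in LT-HSC against 78.3 CPM in CMP, a log2 ratio of −1.65. Setd2 was at 19.7 CPM in LT-HSC against 64.8 CPM in CMP, a log2 ratio of −1.71, and stood at −2.36 without LT-HSC 27. Kdm1a, a histone demethylase gene, stood at −1.68, or −2.66 without LT-HSC 20. The H3K9 methyltransferase gene Setdb1 stood at −1.93, −3.23 without LT-HSC 26 and −1.25 without CMP 23, but at 3.15 in cells without an Xist count, where CMP 1 and 2 held 1 count. In those cells 2 of the 11 genes were lower and 3 higher, against 18.9% lower and 48.8% higher of all genes, whose median was 0.91. The median of the list was −2.02 with LT-HSC 1 to 16 only, −1.44 with LT-HSC 17 to 34 only and −1.09 without CMP 1 and 2.

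Of 9 tested readers of methylated CpG, 3 were lower and 2 higher by at least 2-fold, with a median of −0.67. These shares are near the 28.1% lower and 22.7% higher of all genes. Mbd2, which links methylated DNA to the NuRD repressor complex, was at 10.9 CPM in LT-HSC and 49.98 CPM in CMP, a log2 ratio of −2.20. Mbd3, which also belongs to NuRD complexes but binds methylated CpG poorly, stood at −1.22, or −0.67 without CMP 1 and −0.98 without CMP 18. Mbd4, a glycosylase gene, stood at −1.06 and rested on CMP 19, since without it the value was 0.21, and in cells without an Xist count it was 2.37. Zbtb4 stood at 3.16 (1.49 to 6.57) on LT-HSC 7 alone, and at −1.20 without that cell, from 1 LT-HSC count and 2 CMP counts.

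The genes that work with Tet enzymes or repair their products showed no common direction. Of 16 tested, 5 were lower, 3 higher and 8 within 2-fold, with a median log2 ratio of −0.29 that turned to 0.19 with the mean of each cell's CPM. Of all genes 28.1% were lower and 22.7% higher. Gadd45g, a stress and demethylation-linked gene, reached 70.5 CPM in LT-HSC against 2 counts in CMP, a log2 ratio of 7.64 (6.10 to 11.01). It was found in 12 of 34 LT-HSC, with at least 10 counts in 5, but LT-HSC 33 alone held 70.7% of the LT-HSC counts. The log2 ratio was 5.99 without LT-HSC 33 and up to 8.32 without CMP 10. The glycosylase gene Neil3 stood at −1.76 and at −5.14 without LT-HSC 17, which held 91.8% of its LT-HSC counts. Smug1, another glycosylase gene, stood at 2.35, 1.29 without LT-HSC 6 and 4.05 without CMP 16. Lig3, a repair ligase gene, stood at 2.24 and at 0.01 without LT-HSC 10. Tdg, the glycosylase of Tet products, had 2 counts in the LT-HSC pool and 0 in the CMP pool.

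Genes of the cycle that supplies and clears the methyl donor were likewise divided, with 5 of 13 tested lower, 2 higher and a median of −0.24, against 28.1% lower and 22.7% higher of all genes. Ahcy, which removes the inhibitory by-product of methylation, was at 12.8 CPM in LT-HSC and 40.6 CPM in CMP, a log2 ratio of −1.66. Mtr, methionine synthase, stood at −2.21 and at −5.65 without LT-HSC 17, which held 92.2% of its LT-HSC counts. Of the folate genes, Shmt1 stood at 2.02, or 2.65 without CMP 4, and Mthfd1 at −1.31. Mat2a and Mat2b, which make the donor in most tissues, were close between the gates at 0.19 and −0.10.

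Imprinted genes, whose parental expression depends on methylation, were mostly higher in LT-HSC by pooled CPM. Of 29 listed, 9 had no count in any cell, 6 had under 20, and of the 14 tested 9 were at least 2-fold higher, 1 lower and 4 within 2-fold, with a median of 1.54, where 22.7% of all genes were higher. In cells without an Xist count, 11 of 14 were higher and none lower, where 48.8% of all genes were higher. The median was 0.84 with LT-HSC 1 to 16 only, 1.36 with LT-HSC 17 to 34 only and 1.27 without CMP 1 and 2. Ndn, a growth suppressor gene, reached 25.3 CPM in LT-HSC, spread over 15 of 34 cells, against 2 counts in CMP, a log2 ratio of 6.16 (4.61 to 9.53), or up to 6.83 without CMP 5. Phlda2 was at 75.7 CPM in LT-HSC and 0.99 CPM in CMP, a log2 ratio of 6.16, or 8.41 without CMP 5. Of its 752 LT-HSC counts 741 lay in LT-HSC 17 to 34, while Ndn had 201 of 251 in LT-HSC 1 to 16. Cdkn1c, the cell cycle inhibitor p57, had 74 LT-HSC counts and none in CMP, at least 17.5-fold higher against a floor of 3 counts over the CMP pool, and at least 2.63-fold without LT-HSC 5. Meg3, a non-coding RNA, was at least 6.16-fold higher on the same floor, but 92.3% of its 26 counts were in LT-HSC 6, and 2 counts remained without that cell. The RNA counts do not show which parental copy they came from, and methylation was not measured.

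Of 14 germline genes that are classic targets of methylation-dependent silencing, 12 had no count in any cell. Ddx4 and Hormad1, named after their values were seen, had no count in LT-HSC and 7 counts each in CMP, so none of the 14 was tested. Loss in mapping or counting was not tested as a source of such zeros, and 10265 of the 23152 rows had none, among them the glycolysis gene Eno1.

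**Figure D5:**
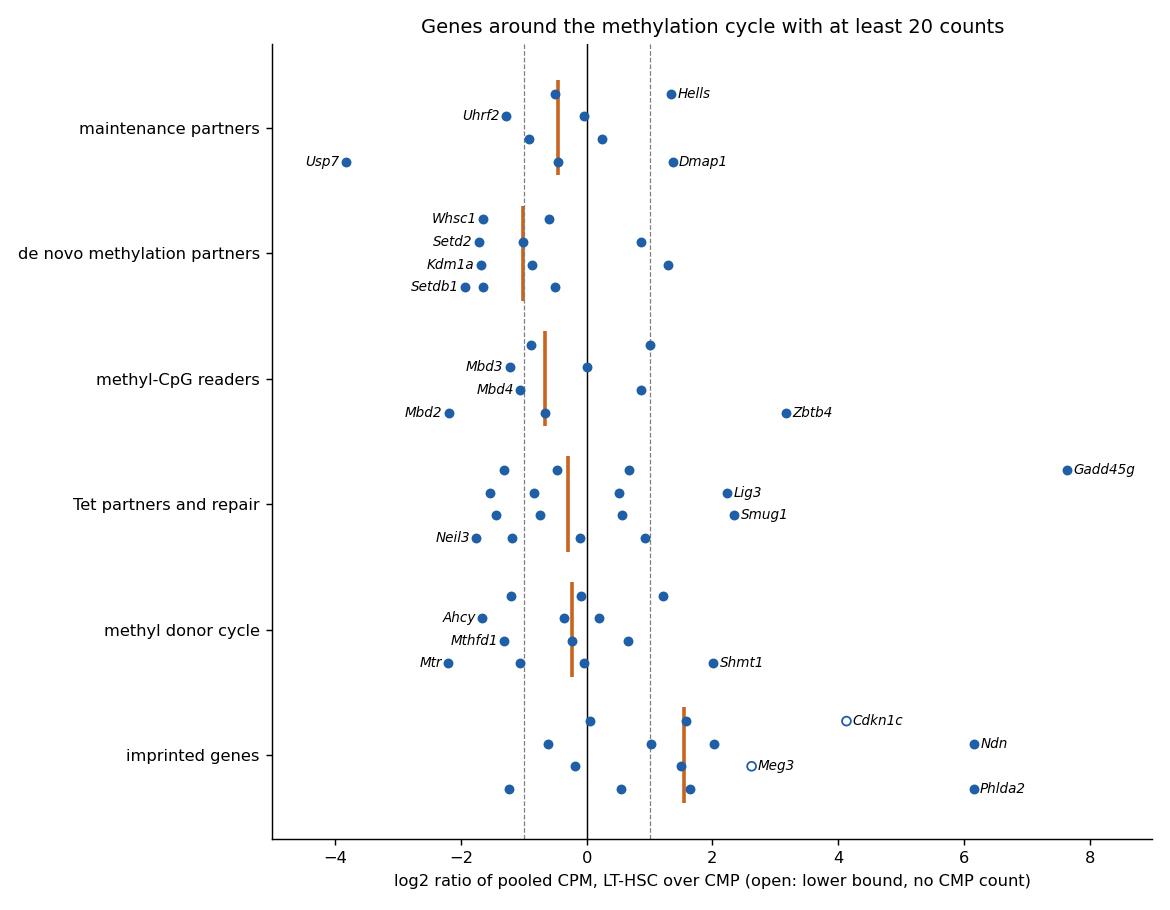
Each point is a listed gene with at least 20 counts, at its log2 ratio of pooled CPM, LT-HSC over CMP, by role, with the list median as an orange bar, and dashed lines at 2-fold. Open points are lower bounds for genes without a CMP count. The median is −1.01 for de novo methylation partners and 1.54 for imprinted genes, and the other 4 lie between −0.67 and −0.24.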

How the data were processed

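Single cells were processed by a modified Smart-seq2 protocol with a cell barcode and a molecular identifier in the primer and capture of 3′ ends, per the labels' protocols. The submitters' processing notes name mm10, TopHat2 2.0.12, HTSeq and Seurat 2.0. The authors deposited whole-number counts per gene symbol and cell. Whether they are molecules or reads, and whether strand was used, is not given in the sources used here. Antisense genes that overlap Dnmt3a and Tet3 (Dnmt3aos and B230319C09Rik) were listed at 0, and those of Dnmt3b and Tet2 were not used here.

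Each gate's counts were added up and scaled by its summed total (CPM) with Python 3.11.15, numpy 2.4.6, scipy 1.17.1 and pandas 2.3.3, and ratio steps were tested on simulated data. All 58 cells were used, with no cell filter and no doublet caller. The log2 ratio added 0.5 to each pooled count. Its 95% interval is exact conditional binomial, those of CPM are exact Poisson and those of shares Clopper-Pearson. A ratio needed 20 counts over both pools, and 2-fold was the limit for a call. For a pool at 0 the floor was 3 counts per pool. Thinning used 97978 counts, the 10th percentile of totals, and left out 4 LT-HSC and 2 CMP. Partner genes named are up to 4 per list with the largest absolute log2 ratio; others are examples chosen after their values were seen. Likeness used genes with at least 100 counts that were found in 1 of every 3 cells or more in both gates. A list member was left out and is not reported here. The members and lists were chosen with earlier results of these data known. Coordinates are from GENCODE M21 (GRCm38, the same build as mm10).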

Additional observations from a re-analysis of the deposited data

How the results depend on the processing

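Of the 7 genes, 4 were at least 2-fold lower in LT-HSC as reported. The number was 2 with the mean of each cell's CPM, 2 with cells without an Xist count only, 1 with LT-HSC 17 to 34 only, and 2 to 4 when each cell was left out in turn, with 2 without CMP 1. It was 3 with median-of-ratios scaling, with a total without ribosomal protein genes and with thinned cells, 4 without shallow cells, with 1 added to each count and without CMP 1 and 2, and 5 with LT-HSC 1 to 16 only. None of the 7 was at least 2-fold higher under any of these. Median-of-ratios scaling raised every log2 ratio by 0.15, and put Uhrf1 at −0.88. Among the 4 genes past 2-fold, Tet2 alone changed sign, to 0.96 with cells without an Xist count only. Dnmt3b, Tet1 and Tet3, which were within 2-fold, changed sign under several alternatives, up to 0.29 for Dnmt3b, −0.71 for Tet1 and 0.37 for Tet3. Of 84 recomputed log2 ratios, 51 stayed inside the counting interval. All 42 recomputed correlations stayed inside the 95% interval for as many independent points, and the 6 list medians stayed within 1.5-fold with at least 100 counts and with the mean of each cell's CPM. With cells without an Xist count only, the medians moved further, to 1.14 for Tet partners and repair and 3.92 for imprinted genes. The median of all genes tested also moved, from −0.13 to 0.91. The cause of these changes was not tested. No paired analysis was possible because no result comes from a test and the replicate numbers only name cells. With 1 sample per gate, no spread between animals is known, and a count of 10 or more in 1 to 8 cells per gate carries most of each gene's pooled value in LT-HSC.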
